A study of Mus musculus with 8 samples.

Results

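Reads assigned to Lars2 and to 9 further genes made up a large and uneven share of RNA sequencing libraries from mouse pancreas. The 10 genes, of 29621 measured, were Lars2, AA474408, Gm10638, Foxe3, En1, Dlx6, Gdf7, Bcorl1, Six3 and Oprm1. They were named because their reads were much lower in one genotype than in the other, so their difference between the genotypes is given as a description and without a test. The series holds 4 libraries of each of 2 genotypes, all from perfused, flash-frozen pancreas of C57BL/6 mice at postnatal day 42. KPC mice carried p48-Cre, in which a locus active in the pancreatic lineage (also known as Ptf1a) drives the recombinase, together with an oncogenic allele switched on by Cre and Trp53fl/fl, a Trp53 gene that Cre removes. KPC-OG mice carried these alleles and also R26tm1(LSL-OG), an OG allele at the R26 locus that is likewise turned on by Cre, so that p48-Cre, the oncogenic allele and Trp53 loss are shared by both groups. The labels do not say that each library is a different mouse, and the spread given below is that between libraries. In whole tissue, fewer cells of a type and less RNA per cell cannot be told apart.

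Lars2 encodes the enzyme that attaches leucine to its transfer RNA inside mitochondria, and every cell that makes mitochondrial proteins needs it. Foxe3 is a forkhead transcription factor of the lens, and En1, Dlx6 and Six3 are homeobox transcription factors of the embryonic brain, face and limb. Gdf7 is a secreted growth factor of the BMP family, known from the roof plate of the developing spinal cord. Bcorl1 is a corepressor that joins a variant Polycomb complex, and Oprm1 is the mu opioid receptor of neurons. AA474408 is an uncharacterised transcribed region, and Gm10638 is a predicted protein-coding gene. The authors' program (Sailfish) assigned reads to transcripts by matching words of 20 bases, per the file headers, so words that a transcript shares with other RNA bear on what is counted for it.

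Lars2 and AA474408, the members with the most reads, lie on different chromosomes but share 59 words of 20 bases, and they are the only pair of members that shares more than 4. All 59 lie in exon 21 of transcript Lars2-201, in the 3′ UTR, in 3 stretches of 41, 34 and 41 bases, and the same stretches follow each other in AA474408-201. Another stretch of 52 bases, overlapping the last of these, is shared with Gm15564-202, an antisense transcript on chromosome 16 that the authors' index did not hold. The middle 30 bases of each stretch are shown because they carry the identity between the transcripts, in the letters of GENCODE M21 (GRCm38). No letters are in capitals, since each line is shared over its full length.
Lars2 and AA474408, stretch 1: gaaaagttaccacagggataactggcttgt
Lars2 and AA474408, stretch 2: tttttgatccttcgatgtcggctcttccta
Lars2 and AA474408, stretch 3: gaattcaccaagcgttggattgttcaccca
Lars2 and Gm15564, stretch 4: gcgttggattgttcacccactaatagggaa
Stretch 1 is at chr9:123461947-123461976 on the plus strand in Lars2 and at chr7:110059785-110059814 on the minus strand in AA474408. Stretch 2 is at chr9:123462005-123462034 and chr7:110059749-110059778, and stretch 3 at chr9:123462048-123462077 and chr7:110059709-110059738, on the same strands. Stretch 4 is at chr9:123462059-123462088 in Lars2 and chr16:35981756-35981785 on the minus strand in Gm15564-202, which is an exon of a noncoding RNA. As background, sequence of this kind is known from the core of the large ribosomal RNA (28S), which ribosomal depletion is meant to remove before sequencing. No 28S sequence was used here, so whether ribosomal RNA supplied the reads was not tested. Of 360 annotated transcripts of ribosomal RNA and ribosome-linked noncoding genes searched, none shares a word with any of the 10 leading transcripts. The leading transcript is that with the most reads over the 8 libraries. With no 28S sequence used, nothing is read from that search on the source of the reads.

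Of the other 8 members, 7 hold at least 1 word of 20 bases that is nothing but a repeat of a unit of 1 to 3 bases. Such a word occurs in 7.74% of 83739 indexed transcripts that had a sequence. That background includes transcripts with few or no reads. Among the leading transcripts of genes tested with edgeR, the closer comparison, 2219 of 14257 hold one. The eighth, Gm10638, has a repeat of 18 bases, too short to fill a word. Each line gives 30 bases around the longest repeat of the leading transcript, shown because such runs are what 7 of the members have in common. The leading transcript was picked by reads over all 8 libraries, on which the members were also chosen. The runs are therefore not independent of that choice. Capitals mark the pure repeat inside the window.
Gdf7-201: CGGCGGCGGCGGCGGCGGCGGCGGCGGCGG
Bcorl1-206: GGCGGCGGCGGCGGCGGCGGCGGCGGCGGC
En1-201: gcccCCGCCGCCGCCGCCGCCGCCGCCacc
Foxe3-201: ccgcaCCGCCGCCGCCGCCGCCGCCcttcc
Gm10638-201: ttccctGCCGCCGCCGCCGCCGCCccgcgc
Dlx6-203: agcaaCAGCAGCAGCAGCAGCAGCAacagc
Six3-202: TCTCTCTCTCTCTCTCTCTCTCTCTCTCTC
Oprm1-216: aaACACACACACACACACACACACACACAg
The whole runs are 40 bases in Gdf7, 34 in Bcorl1, 23 in En1, 20 in Foxe3, 20 in Dlx6, 56 in Six3 and 27 in Oprm1. The runs of Gdf7 (chr12:8298283-8298312, minus strand, exon 2), En1 (chr1:120603263-120603292, plus strand, exon 1), Foxe3 (chr4:114925488-114925517, minus strand, exon 1), Gm10638 (chr8:86746008-86746037, plus strand, exon 1) and Dlx6 (chr6:6863489-6863518, plus strand, exon 1) are in coding sequence. Those of Six3 (chr17:85624587-85624616, plus strand, exon 3) and Oprm1 (chr10:7038168-7038197, plus strand, exon 6) are in the 3′ UTR. That of Bcorl1 (chrX:48342122-48342151, plus strand) is in exon 1 of a transcript with no coding sequence. Gdf7 and Bcorl1 share 3 words of 20 bases, Bcorl1 and Six3 share 4, and Dlx6 shares 1 word with each of En1, Gdf7 and Bcorl1. Foxe3 and En1 also share 1. In G and C content Foxe3 (73.1%), Gdf7 (70.6%) and Gm10638 (70.4%) were far above the median of indexed transcripts (50.3%), while Oprm1 (47.9%) and Bcorl1-206 (49.5%) were below it. The letters of Lars2-201 and Gdf7-201 in GENCODE M21 are 3894 and 1423 bases long against 3881 and 1407 in the authors' index. The leading transcripts of the other 8 members have the same length in both.

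The libraries themselves differed between the genotypes. The KPC libraries held 7373286 to 11292570 estimated reads and those of KPC-OG 13671606 to 18292115, and genes with at least 1 count numbered 15072 to 16520 and 18680 to 20062 (exact two-sided permutation p = 0.0286 for each, adjusted p = 0.0286 over 3 measures, the smallest that 70 arrangements allow). Of 14267 genes tested with edgeR, 2486 were called higher and 2373 called lower in the KPC-OG group (adjusted p threshold 0.05), with a median log2 difference of 0.085 under TMM scaling, which sets differences relative to the typical gene. With library sizes alone that median was 1.82, and 13078 genes were called higher and 99 lower. All 10 members were among the genes called lower, where the background is 16.6% of tested genes, and all 10 were among the 46 genes more than 8-fold lower (0.322%). The members were chosen on this contrast, so nothing is read from those counts.

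Reads of Lars2 (ENSMUSG00000035202, chr9:123366927-123462666, plus strand) were all assigned to 1 transcript, Lars2-201, the only 1 of its 9 annotated transcripts that the index held. It received 2474760, 1696690, 2114990 and 2358940 estimated reads in KPC 1 to KPC 4, and 672575, 694715, 880649 and 1054150 in KPC-OG 1 to KPC-OG 4. Every KPC library was above every KPC-OG library, although the KPC libraries were the smaller ones. As a share of gene-level reads these were 22.8%, 20.8%, 29.95% and 22.4% in KPC and 3.73%, 3.98%, 6.57% and 7.11% in KPC-OG, or 24.0% ± 4.06 against 5.35% ± 1.74 (mean ± SD, n = 4). Lars2 ranked 1 of all genes by reads in the 4 KPC libraries, in KPC-OG 3 and in KPC-OG 4, and 2 in KPC-OG 1 and KPC-OG 2. Per length of transcript, the share was smaller but again did not overlap, with 89593 ± 20106 TPM (the length-adjusted level, scaled to the same total in each library) in KPC against 18489 ± 6374 TPM in KPC-OG (SD, n = 4). The log2 difference of KPC-OG from KPC was -3.78 ± 0.67 (SE) under TMM scaling, and -2.16 with library sizes only.

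AA474408 (ENSMUSG00000073867, chr7:110057987-110061325, minus strand), an unspliced region annotated as awaiting experimental evidence, had the next highest level of the 10. Its 1 transcript received 327186, 222073, 276070 and 258363 estimated reads in KPC, against 94074, 89640, 131136 and 141688 in KPC-OG. The groups did not overlap, and the libraries that were high for Lars2 within KPC-OG, KPC-OG 3 and KPC-OG 4, were high for AA474408 as well. As TPM the level was 13161 ± 3467 for KPC against 2986 ± 1094 for KPC-OG (SD, n = 4), and the log2 difference was -3.62 ± 0.56 (SE) under TMM scaling. For every read of AA474408 there were 8.0 ± 0.755 reads of Lars2 in KPC against 7.26 ± 0.440 in KPC-OG (SD, n = 4). The ranges of 7.56 to 9.13 and 6.72 to 7.75 overlap through KPC-OG 2 alone. In mean reads the genotypes differed by 2.62-fold for Lars2 and 2.37-fold for AA474408.

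**Figure D1:**
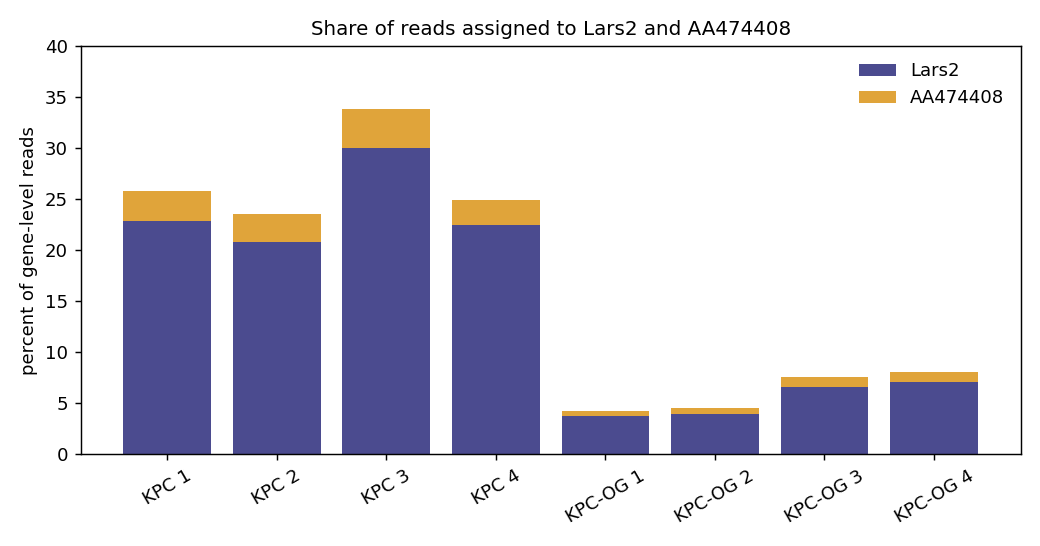
Percent of gene-level reads (vertical axis) assigned to Lars2 and, stacked on top, to AA474408 in each of the 8 libraries. In KPC, Lars2 takes 20.8% to 29.95% of reads, against 3.73% to 7.11% in KPC-OG, and AA474408 is high and low in the same groups.

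The 8 remaining members held little of the libraries, 0.251% ± 0.0292 of gene-level reads in KPC against 0.0394% ± 0.00605 in KPC-OG (SD, n = 4). With Lars2 and AA474408 included, the 10 genes took 27.3% ± 4.68 and 6.13% ± 2.0. In all 10, each KPC library was above each KPC-OG library, in reads, in TPM and in CPM (reads scaled to the gene-level total of the library). That pattern was present in 0.694% of tested genes by CPM of the library and in 17% after TMM scaling. As with the calls, it was part of what the members were chosen for.

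The forkhead gene Foxe3 (ENSMUSG00000044518, chr4:114925147-114926013) has 1 transcript, which received 11983, 8763, 9483 and 12700 reads in KPC, against 3727, 4965, 2063 and 3892 in KPC-OG. The level was 2005 ± 302 TPM in KPC against 355 ± 90.1 TPM in KPC-OG (SD, n = 4), the highest of the 10 after Lars2 and AA474408 in both groups. Within KPC-OG it was lowest in KPC-OG 3 by reads, TPM and CPM of the library, and highest there by TMM-scaled CPM. Its log2 difference was -4.12 ± 0.25 (SE) under TMM scaling.

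En1 (ENSMUSG00000058665, chr1:120602418-120607992) specifies the midbrain-hindbrain boundary and the underside of the limb. It had 5942, 3593, 4249 and 5174 reads in KPC, against 560, 1045, 872 and 694 in KPC-OG, all on its 1 transcript, and the groups lay far apart. The TPM level was 287 ± 50.4 against 25.8 ± 7.51 (SD, n = 4), with a log2 difference of -4.97 ± 0.43 (SE) under TMM scaling.

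Dlx6 (ENSMUSG00000029754, chr6:6863334-6868568), a homeobox gene of the jaw and forebrain interneurons, had 2562, 1638, 1880 and 2607 reads in KPC, against 61, 67, 319 and 113 in KPC-OG. KPC-OG 3 was the high library of its group. The log2 difference was -6.02 ± 0.94 (SE) under TMM scaling and -7.53 without KPC-OG 3.

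Six3 (ENSMUSG00000038805, chr17:85613608-85629302), which sets up the eye field and forebrain, had 952, 734, 841 and 1064 reads in KPC, against 102, 79, 385 and 277 in KPC-OG. Here too KPC-OG 3 was highest in its group, with KPC-OG 4 next. The log2 difference was -4.27 ± 0.78 (SE) under TMM scaling and -5.32 without KPC-OG 3.

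Gdf7 (ENSMUSG00000037660, chr12:8297918-8301954) had the largest difference of any tested gene that was lower in KPC-OG. Its reads numbered 591, 220, 468 and 622 in KPC and 3, 1, 20 and 5 in KPC-OG, all on Gdf7-201, the 1 indexed transcript of 2. In TPM the level was 53.7 ± 19.2 for KPC against 0.497 ± 0.629 for KPC-OG (SD, n = 4), so that in KPC-OG the SD exceeded the mean, with KPC-OG 3 holding 20 of the reads. The log2 difference was -8.44 ± 0.86 (SE) under TMM scaling, -6.72 with library sizes only and -9.99 without KPC-OG 3.

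Bcorl1 (ENSMUSG00000036959, chrX:48341358-48408049) had 1213, 655, 942 and 1032 reads in KPC, against 179, 184, 129 and 221 in KPC-OG, with a log2 difference of -4.96 ± 0.29 (SE) under TMM scaling. Oprm1 (ENSMUSG00000000766, chr10:6758506-7038198) had 773, 662, 931 and 822 reads in KPC, against 168, 228, 269 and 387 in KPC-OG, with a log2 difference of -4.05 ± 0.44 (SE). Both genes were thus detected in every library, and neither had overlapping groups. Gm10638 (ENSMUSG00000074178, chr8:86745699-86746603), a single-exon gene, had 2252, 1590, 1613 and 2744 reads in KPC, against 1047, 1087, 811 and 1082 in KPC-OG, with a log2 difference of -3.48 ± 0.25 (SE). It had the smallest difference of the 10 in reads, TMM-scaled CPM and TPM.

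**Figure D2:**
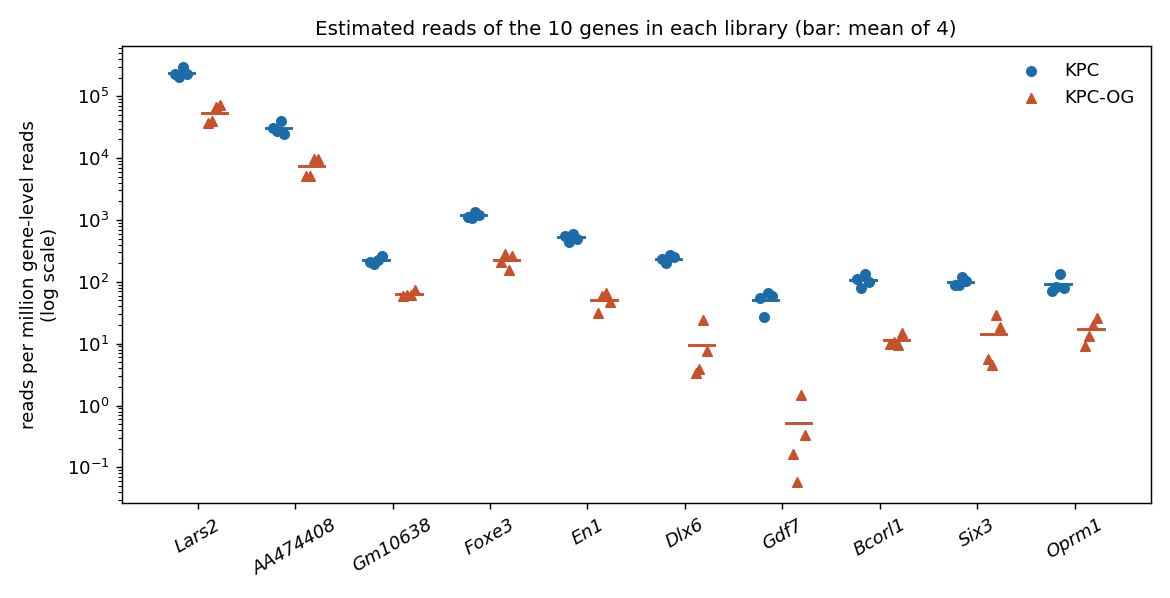
CPM of the library (log scale) of the 10 genes, with 1 point per library and a bar at the mean of 4. Every KPC point lies above every KPC-OG point of the same gene, from 228149 to 37310 for Lars2 in the libraries numbered 1 down to 54.5 and 0.166 for Gdf7.

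By TPM the order of levels in KPC was Lars2, AA474408, Foxe3, Gm10638 (361 ± 48.7), Dlx6 (318 ± 48.1), En1, Bcorl1 (130 ± 33.7), Six3 (59.6 ± 11.7), Oprm1 (54.7 ± 20.2) and Gdf7. The ranges of Gm10638, Dlx6 and En1 overlapped between libraries, but within every KPC library Gm10638 was above Dlx6 and Dlx6 above En1. The ranges of Six3, Oprm1 and Gdf7 also overlapped, and their order changed from library to library. In KPC-OG, Gm10638 followed Foxe3 at 95.3 ± 11.8 TPM, then came En1, and Oprm1 (9.58 ± 4.35), Dlx6 (9.19 ± 11.8), Six3 (7.95 ± 6.44) and Bcorl1 (4.86 ± 1.36) overlapped one another, with Gdf7 lowest.

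Of the 4 members that have several indexed transcripts, Bcorl1 and Dlx6 had most of their reads on different transcripts in the 2 genotypes (for Dlx6 in all libraries but KPC-OG 3), while Six3 and Oprm1 had most on 1 transcript in both. Most KPC reads of Bcorl1 were on Bcorl1-206, a 1160-base transcript without coding sequence, which received 1173, 616, 905 and 988 reads in KPC, against 5.36, 5.04, 42.3 and 6.19 in KPC-OG. It held 95.6% ± 1.18 of the gene's reads in KPC against 10.3% ± 15.0 in KPC-OG (SD, n = 4). By library the KPC-OG shares were 3.0%, 2.74%, 32.8% and 2.81%, so the mean rests on KPC-OG 3 and was 2.85% ± 0.135 without it (SD, n = 3). In KPC-OG 3, Bcorl1-206 still had more reads than any other single transcript of the gene (42.3, against 40.6 for Bcorl1-201). The other 5 transcripts, of which 4 are protein-coding and 1 is a target of nonsense-mediated decay, do not hold the 34-base run and together had 39.6, 39.5, 37.1 and 43.3 reads in KPC, against 173, 179, 86.6 and 214 in KPC-OG. Their direction depended on the scaling, with 4.47 ± 0.719 against 10.2 ± 3.30 CPM of the library and 8.03 ± 1.21 against 5.49 ± 0.730 TMM-scaled CPM (SD, n = 4). By both scales Bcorl1-206 was far lower in KPC-OG.

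The reads of Dlx6 were divided between 2 coding transcripts. Dlx6-203 had 2492, 1557, 1794 and 2523 reads in KPC, against 3.56, 3.98, 250 and 16.3 in KPC-OG, of which KPC-OG 3 held nearly all. Dlx6-202 had 69.6, 81.4, 86.1 and 83.9 reads in KPC, against 57.4, 62.8, 68.8 and 96.4 in KPC-OG, and its groups overlapped in reads. As CPM of the library Dlx6-202 was 9.14 ± 2.50 in KPC against 4.61 ± 1.52 in KPC-OG (SD, n = 4). By TMM-scaled CPM it was 16.4 ± 4.37 against 2.69 ± 1.34, and there the groups did not overlap. Dlx6-203 held 96.1% ± 1.07 of the gene's reads in KPC and 26.2% ± 35.0 in KPC-OG, where KPC-OG 3 stood at 78.4% and the other 3 libraries averaged 8.77% ± 4.96 (SD, n = 3). Both transcripts hold the 20-base CAG run, and Dlx6-202 also has a 64-base run of another unit and 171 pure-repeat words against 2 in Dlx6-203. Of the 1047 different words of 20 bases in Dlx6-203, Dlx6-202 shares 1030.

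Six3 reads were on Six3-202 in 99.5% ± 0.203 of cases in KPC against 95.1% ± 5.11 in KPC-OG (SD, n = 4). The longer Six3-203, which holds the same 56-base run and a 60-base one, had between 2.63 and 5.95 reads in KPC, and in KPC-OG between 2.51 and 9.84, with overlap. Six3-203 also overlapped by CPM of the library, but not by TMM-scaled CPM (0.80 ± 0.29 against 0.24 ± 0.12). Oprm1 reads lay almost wholly on Oprm1-216 among 31 indexed transcripts in both groups, 100% ± 0.0740 in KPC and 98.8% ± 1.67 in KPC-OG. Of the 4 Oprm1 transcripts with at least 1 read in some library, Oprm1-216 is the only 1 that holds the 27-base run. These are estimates of a program that divides reads between transcripts, and near-identical transcripts can exchange them.

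**Figure D3:**
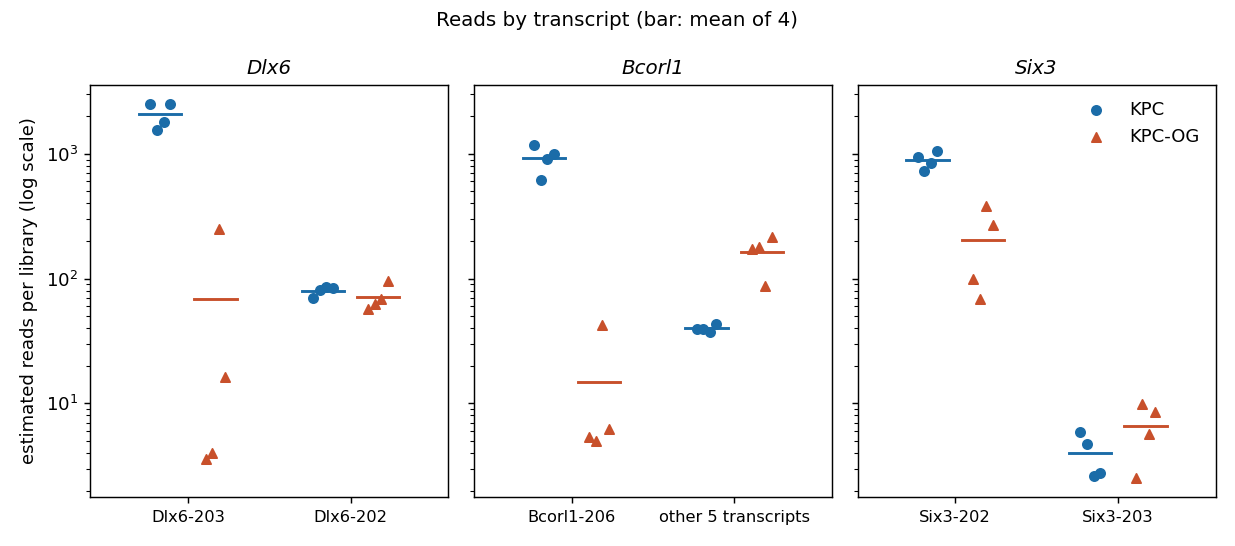
Estimated reads per library (log scale) of the leading transcript and of the remaining transcripts of Dlx6, Bcorl1 and Six3, with 1 point per library and a bar at the mean of 4. Leading transcripts separate the genotypes in reads, while Dlx6-202 and Six3-203 overlap in reads (not by TMM-scaled CPM) and the other 5 Bcorl1 transcripts have more reads in KPC-OG.

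Setting each member against the reads of Lars2 in the same library needs no scaling factor and gave groups that overlapped for 5 members and did not for 4. The share of all genes without overlap by this measure was not computed, so nothing is read from those counts. AA474408 had 126 ± 10.9 reads per 1000 Lars2 reads in KPC and 138 ± 8.48 in KPC-OG, Foxe3 4.97 ± 0.392 and 4.68 ± 2.10, and Gm10638 0.943 ± 0.165 and 1.27 ± 0.342 (SD, n = 4). Oprm1 had 0.373 ± 0.055 and 0.313 ± 0.049, and Six3 0.416 ± 0.0307 and 0.241 ± 0.145. These 5 overlapped between the genotypes. For AA474408 the overlap came from KPC-OG 2 alone (129). KPC-OG 1, KPC-OG 3 and KPC-OG 4, at 140, 149 and 134, were above every KPC library (110 to 132). For Six3 the overlap came from KPC-OG 3 alone (0.437). The other 3 KPC-OG libraries, at 0.152, 0.114 and 0.263, were below every KPC library (0.385 to 0.451), with a mean of 0.176 ± 0.0775 (SD, n = 3).

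En1, Dlx6, Gdf7 and Bcorl1 were lower in KPC-OG even relative to Lars2, with no overlap. En1 had 2.18 ± 0.165 reads per 1000 Lars2 reads in KPC and 0.996 ± 0.365 in KPC-OG, and Bcorl1 0.440 ± 0.0427 and 0.222 ± 0.0567 (SD, n = 4). Dlx6 had 0.999 ± 0.0928 and 0.164 ± 0.132, a 6.08-fold difference of means. Gdf7 had 0.213 ± 0.0584 and 0.00834 ± 0.00970, a 25.6-fold difference. Both means rest on KPC-OG 3 (0.362 for Dlx6 and 0.0227 for Gdf7). Without that library, a choice made after seeing the data, the KPC-OG means were 0.0981 ± 0.00838 and 0.00355 ± 0.00183 (SD, n = 3), and the differences 10.2-fold and 60.1-fold. No test is given for these ratios, since the members were chosen on the same contrast.

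**Figure D4:**
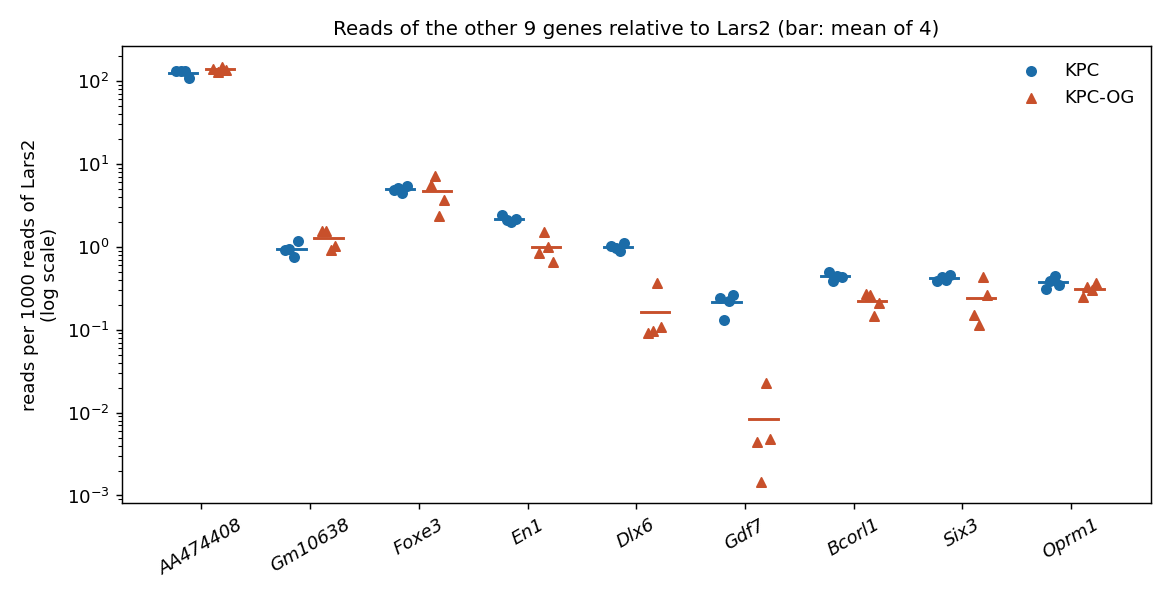
Reads of the other 9 genes per 1000 reads assigned to Lars2 in the same library (log scale), with 1 point per library and a bar at the mean of 4. AA474408, Gm10638, Foxe3, Six3 and Oprm1 overlap between the genotypes, while En1, Dlx6, Gdf7 and Bcorl1 are higher in KPC, Gdf7 by 25.6-fold (60.1-fold without KPC-OG 3). Six3 overlaps through KPC-OG 3 only, and AA474408 through KPC-OG 2 only.

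Among the KPC-OG libraries, KPC-OG 3 stood apart for several members. By TMM-scaled CPM it was the highest of its group for all 10, with 57664 for Lars2 against 18002 to 31383 in the other 3 libraries. It also had the lowest TMM factor of its group, 1.14 against 1.83 to 2.28, which raises every gene's value in that library, and by CPM of the library KPC-OG 4 was above it for Lars2, Gm10638, Foxe3, Bcorl1 and Oprm1. The part of that factor in the order was not tested. Dlx6 and Gdf7 were high in KPC-OG 3 on both scales, with 23.8 and 1.49 CPM of the library against at most 7.63 and 0.337 elsewhere in the group.

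Markers of tissues in which several of these genes usually act were measured beside them. The calls below stand beside 16.6% lower and 17.4% higher over all tested genes. The 7 lens markers summed to between 0.382 and 1.33 TMM-scaled CPM in KPC and between 2.01 and 3.21 in KPC-OG, and 5 of the 7 had a read in KPC. The 8 neuron and glia markers summed to 39.5 to 44.0 in KPC and 35.4 to 38.8 in KPC-OG, and 7 of the 8 had a read in KPC. By CPM of the library their direction was reversed, with 20.8 to 27.7 in KPC and 40.3 to 86.7 in KPC-OG. Of 5 neuron and glia markers tested, 1 was called higher and 1 lower by edgeR, and the 1 lens marker tested was called higher. No marker of either list was at 0 in all 8 libraries. The 7 acinar markers of the labelled pancreas were all detected and summed to between 184689 and 353704 TMM-scaled CPM in KPC and 28950 to 90964 in KPC-OG, with 6 of 7 called lower and none higher by edgeR. The 4 duct markers summed to 69.3 to 106 and 211 to 417, with 3 called higher and none lower. The 4 macrophage markers summed to 83.5 to 130 and 205 to 301, with all 4 called higher, and the 4 fibroblast markers to 425 to 544 and 707 to 2125, with 3 called higher and none lower. The part of these marker levels in the levels of the 10 genes was not tested.

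Repeat words of the kind printed above were followed through the rest of the genes, a comparison chosen after the values were seen and given without a test. Of 14257 tested genes with a sequence for their leading transcript, 2219 held a pure-repeat word, among them 7 of the 10 members. Without the members, 2212 held one, and these included 12 of the 36 other genes more than 8-fold lower. Of the same genes, 140 tested genes had a longest run of GCC or GGC, the unit of Gdf7, Bcorl1, En1 and Foxe3. Of those, 65 (46.4%) were called lower and 7 (5%) higher in KPC-OG by edgeR, with a median log2 difference of -0.45, against 16.6%, 17.4% and 0.085 over all tested genes. Genes with repeat words of other 3-base units were called lower in 24% (n = 363), of 2-base units in 19.8% (n = 1283) and of 1-base units in 18.5% (n = 426). Within the 1-base class, runs of C or G were called lower in 46.2% (n = 13) and runs of A or T in 17.7% (n = 413). Within the 2-base class, runs of CG were called lower in 66.7%, but of only 3 genes. With so few genes in the C or G and CG classes, whether a high share is particular to the 3-base unit was not tested. Among genes without any repeat word the share called lower was 15.6%.

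The GCC class has a G and C content like that of other genes, with a median of 51.3% against 50.2% over all tested genes. In the band of G and C content from 46.5% to 57.2% that held the middle of the class, 28 of 70 of its genes (40%) were called lower, against 15.3% of 6738 genes without a repeat word. In the tenth of genes highest in G and C, without a repeat word, 14.3% were called lower. These contents are of the whole leading transcript. The part of repeats or of base composition in the calls was not tested. The share in the GCC class was 51.4% with DESeq2 and 42.9% with limma-voom. With library sizes only it was 5%, against 0.694% of all tested genes, and the class median was -0.52 relative to the median gene. With log2(TPM + 1) the class median was 0.96 against 1.31 over all tested genes, and with log2(TPM + 0.1) 1.18 against 1.69. The direction of the class is thus relative to the typical gene. The leading transcript was chosen by reads over all 8 libraries, so this class is not independent of the counts.

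**Figure D5:**
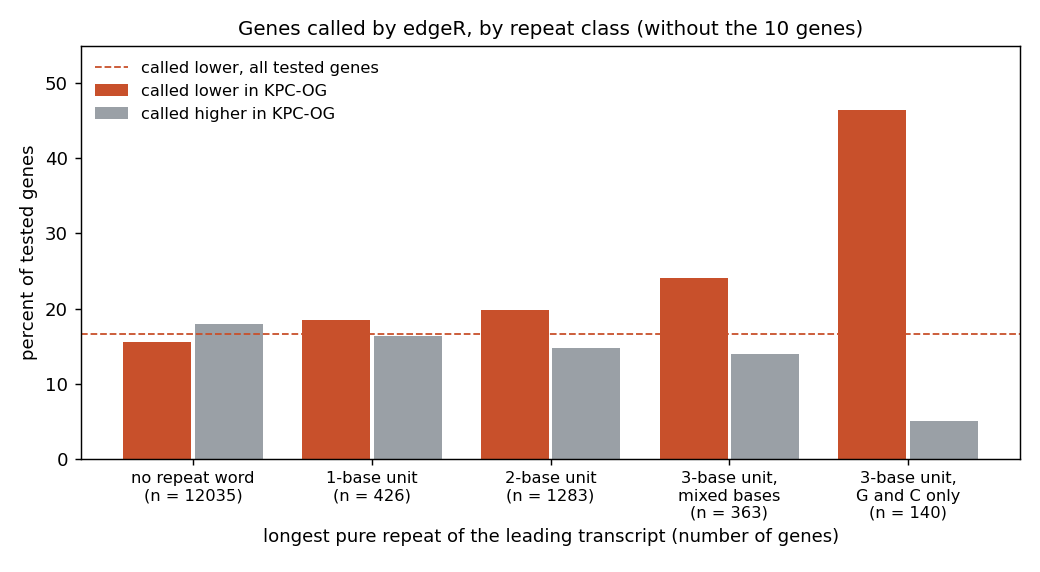
Percent of tested genes called lower or higher in KPC-OG by edgeR, by the kind of pure repeat in the leading transcript, without the 10 members (number of genes below each pair of bars; dashed line, 16.6% called lower over all tested genes). Genes with a repeat of G and C only are called lower in 46.4% and higher in 5%.

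By their variation between libraries of the same genotype, 8 genes outside the 10 were most like Lars2 among 13562 genes compared. They were the POU-domain gene Pou3f4 (r = 0.995), Wdr26 (0.992), the mitochondrially encoded ATP synthase gene mt-Atp6 (0.991), the NF-kappaB subunit gene Nfkb1 (0.990), the RNA-binding protein gene Celf2 (0.987), Ilkap (0.984), Plekhm2 (0.984) and Marc2 (0.980). These are Pearson correlations of log2 TMM-scaled CPM less the group mean over the same 8 libraries, which share their scaling factors with Lars2, and are a description only. With CPM of the library in place of TMM, 6 of the 8 were again among the 8 most like Lars2, while Wdr26 had r = 0.012. Among the members r was 0.989 for AA474408, 0.966 for Six3, 0.944 for Oprm1 and 0.943 for Dlx6, and lowest for Foxe3, at 0.559 (and -0.098 with CPM of the library). Of the 8 genes, Pou3f4, Wdr26, Nfkb1, Ilkap and Marc2 hold at least 1 pure-repeat word in their leading transcript. Pou3f4 had 7906 TMM-scaled CPM in KPC and 512 in KPC-OG as group means, whereas mt-Atp6 (82.0 and 90.5) did not pass the test.

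Other genes of the pathways in which the members act were counted from lists. For comparison, 16.6% of all tested genes were called lower and 17.4% higher by edgeR, and no list was tested as a set. Among 22 genes of mitochondrial transfer RNA charging and its cytosolic leucine counterpart, 6 were lower, none was higher and 16 did not pass (edgeR, adjusted over all tested genes), with a median log2 difference of -0.21. Mars2, the mitochondrial methionine enzyme, fell by 1.33 ± 0.17 (SE; edgeR adjusted p = 7.52e-04), and Gars and Kars, which charge glycine and lysine in both compartments, fell by 1.13 ± 0.17 and 0.80 ± 0.12 (edgeR adjusted p = 0.00133 and 0.00145). Lars, the cytosolic leucine enzyme, fell by 0.93 ± 0.12 (edgeR adjusted p = 8.30e-04), from 61.8 ± 7.06 to 32.4 ± 2.12 TMM-scaled CPM (SD, n = 4). With library sizes only these 4 were at 0.41, 0.58, 0.94 and 0.80, so that their direction is relative to the typical gene. Relative to the median gene the list's median was then -0.29.

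In the BMP pathway, to which Gdf7 belongs, 10 of 19 ligand genes were tested, of which 3 were higher and 2 lower, with a median of 0.77. Bmp7 fell by 1.71 ± 0.18 (SE; edgeR adjusted p = 4.65e-04), though with library sizes only its value was -0.0015, and Bmp3 fell by 2.69 ± 0.69 (adjusted p = 0.0185). Gdf10 rose by 2.20 ± 0.45 (edgeR adjusted p = 0.00595, but 0.0907 with limma-voom). Gdf6 and Gdf11 rose by 2.14 ± 0.71 and 0.98 ± 0.31 (edgeR adjusted p = 0.0393 and 0.0346). Calls were lost on leaving out single libraries for Bmp3 (adjusted p up to 0.0584, without KPC 1 or KPC-OG 4), for Gdf6 (up to 0.0982, for 6 of the 8 libraries, all except KPC 1 and KPC-OG 3) and for Gdf11 (up to 0.0944, for each library left out except KPC 2). Of 17 tested receptors, transducers, inhibitors and targets, 3 were lower and 1 higher, with a median of 0.18. The receptor genes Bmpr1b, Bmpr2 and Acvr2a fell by 3.26 ± 0.43, 1.15 ± 0.16 and 1.16 ± 0.15 (edgeR adjusted p = 9.29e-04, 9.52e-04 and 7.52e-04), the latter pair being at 0.61 and 0.60 with library sizes only. The target gene Id1 rose by 1.48 ± 0.32 (edgeR adjusted p = 0.00587).

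Of 12 paralogs of the homeobox and forkhead members only Six4 and Six5 had enough reads to be tested. Six4 fell by 1.46 ± 0.33 and Six5 by 0.45 ± 0.16 (SE; edgeR adjusted p = 0.00783 and 0.0499), with values of 0.22 and 1.29 when library sizes alone were used, and Six5 no longer passed when any of 7 libraries was left out, all but KPC 3 (adjusted p up to 0.123). Among 10 genes of the Polycomb complex that Bcorl1 joins, Skp1a rose by 0.54 ± 0.12, Usp7 fell by 0.38 ± 0.12 (edgeR adjusted p = 0.00691 and 0.0346) and 8 did not pass, with a median of -0.018. Usp7 was at 1.37 with library sizes only, and it no longer passed when 1 library was left out, for all but KPC 2 and KPC-OG 1 (adjusted p up to 0.0946). Of 7 other opioid genes only Penk, the enkephalin precursor, was tested, and it rose by 2.29 ± 0.46 (edgeR adjusted p = 0.00552, but 0.0846 with limma-voom). None of 13 abundant noncoding RNA genes on a further list was in the table, so they were not analysed here.

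Genes next to the members on the chromosome were examined as well, and none was among the 46 more than 8-fold lower. Of the 20 nearest protein-coding genes, 16 were tested, and their median log2 difference was -0.14. By edgeR 1 was higher, 3 were lower and 12 did not pass, where 17.4% of all tested genes were higher and 16.6% lower. Nothing is read from these counts. Beside Lars2, Limd1 fell by 0.40 ± 0.11 (SE; edgeR adjusted p = 0.0188, up to 0.0627 without single libraries), and Tmem158 did not pass. Ipo7, beside AA474408, fell by 0.59 ± 0.13, and Cnksr3, beside Oprm1, by 0.77 ± 0.19 (edgeR adjusted p = 0.00681 and 0.0107), while Rgs17 on the other side of Oprm1 rose by 2.36 ± 0.60 (edgeR adjusted p = 0.0137). With library sizes only Limd1, Ipo7 and Cnksr3 were at 1.33, 1.15 and 0.96. The 4 neighbours with too few reads to be tested were Dlx5 beside Dlx6 (0 to 2 reads per library), Foxd2 beside Foxe3 (0 to 3), and Six2 and Camkmt on the sides of Six3 (0 to 10 and 1 to 48). The tested genes that overlap a member were Zfp143 at -0.01, Siah1a at 0.31 and Ipcef1 at -0.33, 3 in all, and none passed.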

How the data were processed

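Total RNA of 8 pancreas samples was sequenced after ribosomal depletion, per the labels' protocols. The authors ran Sailfish 0.6.3 on the reads, per the file headers (words of 20 bases, 1000 iterations, bias correction) against Ensembl release 76 mouse cDNA, giving the deposited estimated counts and the deposited TPM values. The deposited transcript lengths were used for length checks. STAR 2.0.4b, bcl2fastq, limma and edgeR appear in the submitters' processing notes with no role.

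Of 86127 transcripts, 83827 matched GENCODE M21 (GRCm38). The 2300 others were left out (3.93% to 4.23% of reads in KPC, 1.45% to 3.04% in KPC-OG). Estimated counts were summed over 29621 genes and rounded. Strand is not stated, so antisense and overlapping genes cannot be told apart.

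Groups and replicate numbers came from the sample titles. Tests used the robust quasi-likelihood fit of edgeR 4.0.16 (R 4.3.3), TMM factors (0.483 to 0.653 in KPC, 1.14 to 2.28 in KPC-OG), filterByExpr, no block and Benjamini-Hochberg adjustment at 0.05. P-values describe only the spread among the 8 libraries. Alternatives were RLE scaling, library sizes only, no filter, DESeq2 1.42.0, limma-voom (limma 3.58.1), log2(TPM + 1), log2(TPM + 0.1), the replicate number as a block, each library left out, and Lars2 removed; each KPC-OG library was also left out of the ratios to Lars2. Words were compared with GENCODE M21 transcripts in the transcript's direction. Likeness used log2(CPM + 0.5) of genes at 1 CPM or more on average. No 2 libraries of a group were alike within counting noise (smallest chi-square over its degrees of freedom, 14.7).

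The members and lists were chosen with earlier results of these data known. Named genes were the members, up to 4 passing genes of each list with the smallest adjusted p and any passing gene of a list with 5 or fewer, passing neighbours, and the 8 genes most like Lars2. Genes named for not passing or not being tested (Tmem158, Dlx5, Foxd2, Six2, Camkmt, Zfp143, Siah1a, Ipcef1) were added after their values were seen. An allele of both genotypes is not named here. The fit was tested on simulated data with 13557 genes for KPC-OG against KPC. Of 100 planted 2-fold and 100 planted 4-fold changes edgeR recovered 59 and 90, with 8 false calls.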

Additional observations from a re-analysis of the deposited data

Results flagged for a closer look

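In 20 groups of 4 libraries (10 genes in 2 genotypes), 3 values lay far from the rest of their group. Chance alone gives such a value in about 5% of groups. The 10 genes share their libraries and TMM factors, so the groups are not independent. All 3 were in KPC-OG 3. They were Gm10638 at 53.1 TMM-scaled CPM against 28.2 to 32.2 in the other KPC-OG libraries, Dlx6 at 20.9 against 1.74 to 3.36, and Gdf7 at 1.31 against 0.0259 to 0.149. By CPM of the library Gm10638 was not high in KPC-OG 3 (60.5, with 58.1 to 73.0 in the other 3), while Dlx6 and Gdf7 were (23.8 and 1.49).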

How the results depend on the processing

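In each of 169 values of the members' log2 differences over all alternatives, KPC-OG was below KPC. Scaling moved the counts most. With library sizes only, 13078 genes were called higher and 99 lower, against 2486 and 2373. In the gene lists the calls were then 57 and 2 in place of 6 and 14, among neighbouring genes 15 and 0 in place of 1 and 3, and Lars2 was at -2.16, or -3.99 relative to the median gene. With log2(TPM + 1) the calls were 12856 and 121 and with log2(TPM + 0.1) 12817 and 120, with Lars2 at -2.32 in both. As a share of TPM Lars2 held 8.96% in KPC and 1.85% in KPC-OG. DESeq2 called 6 neighbouring genes lower. Without single libraries, calls ran from 1689 to 2880 higher and from 1705 to 2548 lower, in the lists from 4 to 7 and from 9 to 14 (9 without KPC 1 or KPC-OG 4), among neighbours from 1 to 3 (3 without KPC-OG 3) and from 2 to 4, and Lars2 from -4.22 to -3.58. Causes were not tested.

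With the replicate number as a block, Lars2 was at -3.91, with 2477 genes higher and 2418 lower. In same-numbered libraries, deviations of log2 TMM-scaled CPM from the group mean correlated at 0.274, 0.275, 0.038 and 0.036, the latter 2 under 0.1. The numbers were therefore not taken to pair the libraries, although those numbered 1 and 2 correlated best with their own number. Small numbers of reads limit Gdf7 in KPC-OG and the low neighbours. The self-test simulated no composition difference.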
